A study of Mus musculus with 16 samples.

Results

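The 47 genes described here encode the proteins that copy DNA and the regulators that carry a cell from G1 into S phase, in RAW264.7 cultures treated with RANKL, with vesicles of PC3M cells, or with both. They were chosen by name, and all 47 were found among the 20490 rows of the expression table. All 47 also passed the expression filter and are among the 10365 genes tested.

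Replication origins are licensed in G1, when the origin recognition complex, CDC6 and CDT1 load the MCM helicase onto DNA. CDC7 with its activator DBF4, and cyclin-dependent kinases driven by cyclin E, then convert the loaded helicase into active forks, where polymerases, the PCNA clamp and its loader copy the strands. Many of these genes are transcribed under E2F factors, and their transcripts are abundant in dividing cells; macrophage precursors divide before they fuse into osteoclasts and stop dividing as they mature.

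RAW264.7 is a mouse macrophage line that forms osteoclast-like cells when given RANKL, the cytokine that drives osteoclast formation. PC3M is a line derived from a human prostate carcinoma, and EV stands for the extracellular vesicles it releases. Cells attached for 12 h and were then kept for 48 h or 72 h with phosphate-buffered saline (PBS), with recombinant mouse RANKL at 10 ng/mL, with EV at 30 µg/mL, or with EV and RANKL together at those doses (EV+RANKL). Each of the 8 groups held 2 libraries, 16 in all, and all came from this single cell line. The column name of replicate 2 of EV+RANKL at 48 h leaves out RANKL; it was placed in that group because its name has the plus sign and time of no other group, and main counts are also given without it. No label states that both libraries of a group were grown as separate cultures; p-values therefore reflect the spread among these libraries, and that spread may be technical. EV, RANKL and EV+RANKL are compared with the same PBS libraries, so those comparisons are not independent of each other.

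The promoters of these genes are shown first because E2F sites are the feature such genes are known to share. RefSeq promoter windows on GRCm38.p6, running from 250 bases before to 50 bases after a gene's start, were matched for 39 of the 47 genes, in 47 windows since some genes have more than 1 start. The E2F-type motifs TTTCCCGC, TTTCGCGC, TTTGCCGC and TTTGGCGC were searched on both strands, and matches that overlap were each kept. At least 1 match was found in 14 of the 47 windows (29.8%), each of a different gene, against 2.26% of all 32851 windows of the same length. The CCAAT motif, also on both strands, was found in 55.3% of the windows of these genes and in 37.4% of all windows. A match is a description of letters and not a measured binding site. Only these exact motifs were searched, so a window without a match may still hold an E2F site of another form.

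The 250 bases upstream of the start are printed for 4 genes whose transcripts changed in the comparisons that follow, 5′ to 3′ on the gene's own strand, with E2F-type matches in capitals. Mcm5, a subunit of the helicase, lies on the forward strand at chr8:75109259-75109508, and Cdc6, a helicase loader, on the forward strand at chr11:98907901-98908150. Mcm6, another helicase subunit, lies on the reverse strand at chr1:128359706-128359955, and Dbf4, the activator of CDC7, on the reverse strand at chr5:8422717-8422966.
Mcm5: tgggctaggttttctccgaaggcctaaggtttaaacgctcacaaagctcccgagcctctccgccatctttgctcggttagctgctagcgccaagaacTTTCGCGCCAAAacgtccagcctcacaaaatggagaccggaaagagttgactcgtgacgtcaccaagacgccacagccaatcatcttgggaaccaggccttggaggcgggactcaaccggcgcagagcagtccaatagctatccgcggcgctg
Mcm6: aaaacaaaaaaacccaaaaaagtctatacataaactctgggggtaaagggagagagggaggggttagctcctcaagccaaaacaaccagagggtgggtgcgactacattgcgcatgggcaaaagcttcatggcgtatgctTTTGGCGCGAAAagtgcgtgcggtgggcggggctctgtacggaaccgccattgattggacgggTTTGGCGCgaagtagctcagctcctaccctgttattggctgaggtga
Cdc6: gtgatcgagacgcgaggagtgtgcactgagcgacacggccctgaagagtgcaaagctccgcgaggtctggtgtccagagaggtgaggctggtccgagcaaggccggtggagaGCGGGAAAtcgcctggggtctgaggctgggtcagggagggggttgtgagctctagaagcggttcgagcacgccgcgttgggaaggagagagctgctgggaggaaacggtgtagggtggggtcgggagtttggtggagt
Dbf4: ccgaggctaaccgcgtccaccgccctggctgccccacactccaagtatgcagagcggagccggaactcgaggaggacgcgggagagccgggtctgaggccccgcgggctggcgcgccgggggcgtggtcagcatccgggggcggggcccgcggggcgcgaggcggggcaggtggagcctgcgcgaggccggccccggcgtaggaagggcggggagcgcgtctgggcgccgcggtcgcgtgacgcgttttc
In Mcm5 the capitals are TTTCGCGC on the printed strand overlapping TTTGGCGC on the other strand. Mcm6 has TTTGGCGC on the printed strand overlapping TTTCGCGC on the other, and a further TTTGGCGC nearer the start, and Cdc6 has TTTCCCGC on the strand opposite to the printed one. None of the 4 motifs is in the Dbf4 window, and Dbf4 had the smallest adjusted p among the 47 genes in the change with time under EV+RANKL. Of the 14 genes with a match, 11 fell in that comparison (limma, adjusted p under 0.05), with a median log2 difference of -0.65. Of all genes tested, 21.5% fell there. Of the 25 genes with a window but no match, 21 fell, with a median of -0.66. Whether genes with and without a match differed was not tested.

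Depth was estimated at 18.4 M to 20.0 M reads per library, and 3 reads in a transcript of 1 kb correspond to 0.15 to 0.163 RPKM. The 47 genes had median levels over the 16 libraries between 5.12 RPKM (Orc1) and 114 RPKM (Pcna), far above that floor. Together they took 0.211% to 0.427% of all RPKM in a library. Of 10 macrophage markers all were in the table, with a summed level of 2110 to 8260 RPKM. Lyz2 alone ranged from 719 to 6080 RPKM, and Mertk was at 0.863 RPKM or less throughout. The 4 of 8 epithelial or carcinoma markers in the table summed to at most 0.302 RPKM and the 7 of 8 stromal and bone-forming markers to at most 1.52 RPKM. The 5 of 10 markers of other blood cells in the table summed to at most 7.57 RPKM. The summed level of 10 osteoclast markers was 17.5 to 19.4 RPKM in the PBS libraries and 1600 and 1100 RPKM in those of EV+RANKL at 72 h, while 1 of these markers, Calcr, was at 0.133 RPKM or less throughout. At 72 h, 5 libraries stood apart in the share of cytosolic ribosomal protein genes: both EV libraries, both EV+RANKL libraries and replicate 2 of RANKL had 10.7% to 11.2%, against 7.93% to 9.47% in the other 11. For EV and EV+RANKL at 72 h that share and the treatment cannot be told apart.

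Across the 8 groups the transcripts of replication genes were most abundant at 48 h with RANKL and least abundant at 72 h with EV+RANKL. The highest of the 8 group means was RANKL at 48 h for 32 of the 47 genes, and the lowest was EV+RANKL at 72 h for 42. Relative to the mean of PBS at 48 h, the median gene was 0.15 and 0.21 higher on the log2 scale in the libraries of RANKL at 48 h. It stood at -0.62 and -0.29 in those of EV+RANKL at 72 h, at -0.15 and -0.14 with RANKL at 72 h, and at -0.15 and -0.02 with PBS at 72 h. With EV at 72 h the libraries split, at -0.49 in replicate 1 and 0.05 in replicate 2. The lowest library median was that of replicate 1 of EV+RANKL at 72 h, followed by replicate 1 of EV and replicate 2 of EV+RANKL.

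**Figure D1:**
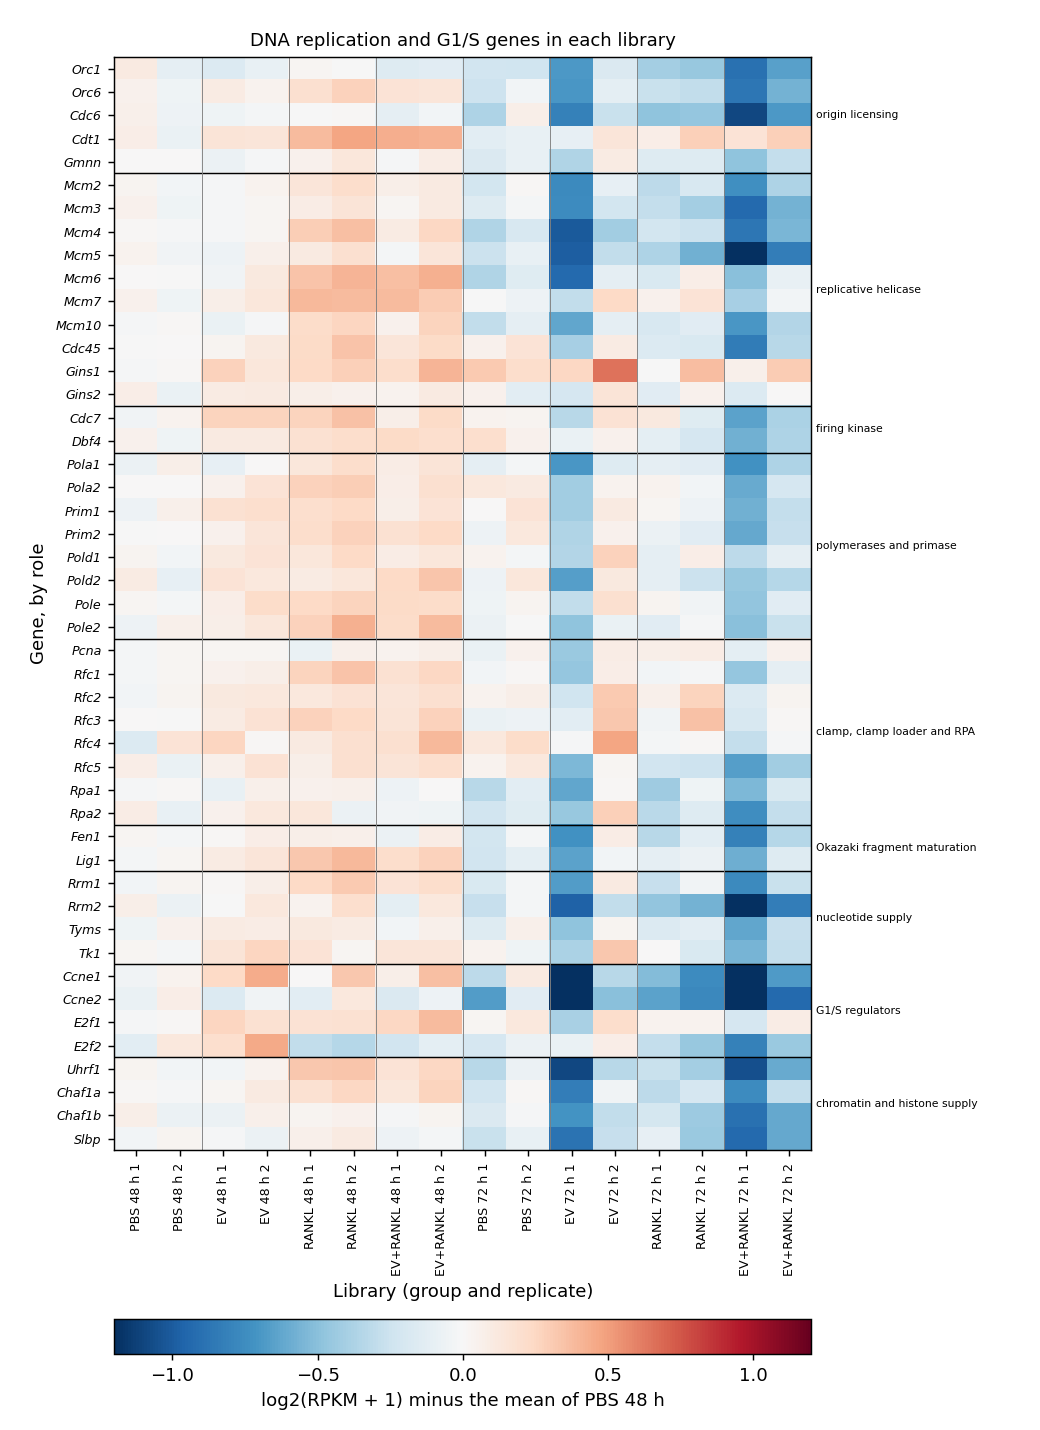
Each row is 1 of the 47 genes, grouped by role, and each column 1 of the 16 libraries; colour gives log2(RPKM + 1) minus the mean of the gene in PBS at 48 h, with values beyond 1.2 in either direction shown in the end colour. Below the PBS mean (blue) are 45 and 40 genes in replicates 1 and 2 of EV+RANKL at 72 h and 46 in replicate 1 of EV at 72 h, while Cdt1 and Gins1 are not blue in EV+RANKL at 72 h.

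The members were not equally variable. Between the lowest and the highest library the median gene differed 2.01-fold. Ccne1 and Ccne2, which encode the E cyclins that drive entry into S phase, spanned 3.96-fold and 3.36-fold, and E2f2, an E2F transcription factor, spanned 2.87-fold. The narrowest spans were 1.31-fold for Gins2, a subunit of the GINS helicase cofactor, and 1.45-fold for Pcna, the sliding clamp. The lowest library was replicate 1 of EV+RANKL at 72 h for 30 genes and replicate 1 of EV at 72 h for 15. In both groups replicate 1 was below replicate 2 for all 47 genes, with a median difference of -0.54 on the log2 scale in EV and -0.34 in EV+RANKL, whereas RANKL at 72 h had 23 genes lower and 24 higher in replicate 1.

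**Figure D2:**
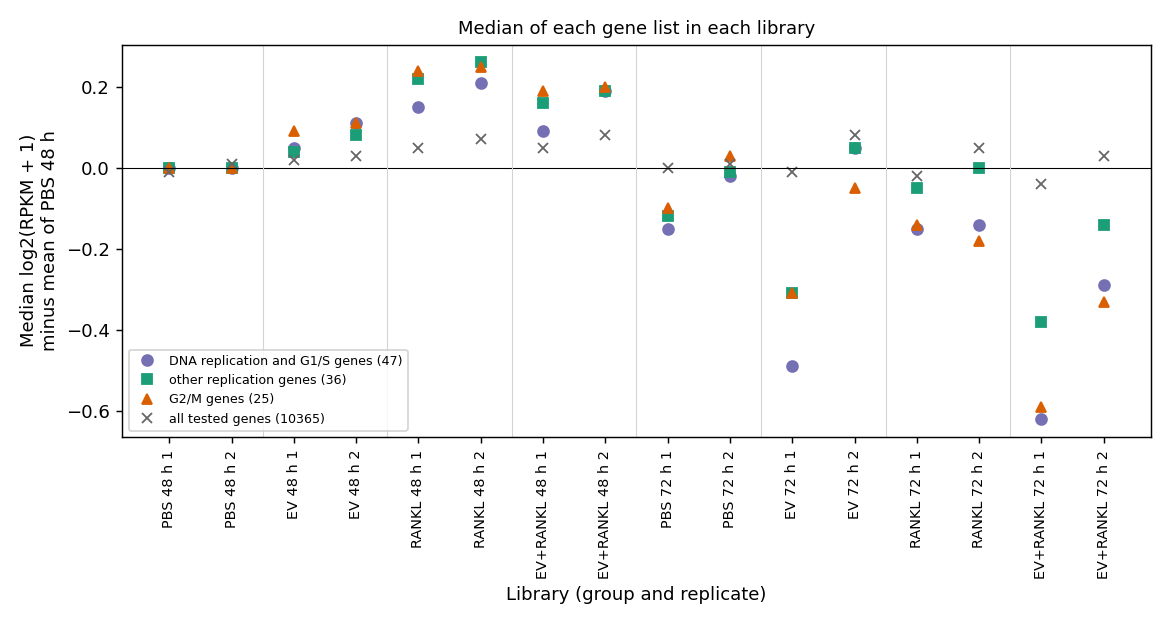
Each point is the median, in 1 library, of log2(RPKM + 1) minus the mean of PBS at 48 h, for the 47 genes, 36 other replication genes, 25 G2/M genes and all 10365 genes tested. The 47 genes reach -0.62 in replicate 1 of EV+RANKL at 72 h, where the median of all genes is -0.04.

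At 48 h Cdt1 was the member that passed with RANKL and with EV+RANKL, and none passed with EV. RANKL raised 1 of the 47, Cdt1, and lowered none (limma, adjusted p under 0.05, as in all counts here). Of all genes tested, 6.47% were higher and 8.29% lower. At an unadjusted p under 0.05, 4 members passed, a threshold at which all genes were not counted. The count at the adjusted p depends on the fit. When only the RANKL and PBS libraries of 48 h were fitted, 18 members were called, all higher, and 3 after rescaling. Cdt1, which loads the helicase together with CDC6, was at 30.7 and 27.3 RPKM with PBS and at 38.0 and 40.6 RPKM with RANKL. Both RANKL libraries lay above both PBS libraries, by 0.43 ± 0.10 (SE, n = 2 and 2) on the log2 scale (limma adjusted p = 0.015), but the call was lost without replicate 2 of PBS or of RANKL (adjusted p up to 0.145). The other members were mostly on the same side without passing: 45 of 47 differences were positive, the median was 0.18 against 0.06 for all genes tested, and 34 had both RANKL libraries above both PBS libraries, where 42.9% of all genes did. Mcm6 stood at 49.4 and 49.2 RPKM with PBS and 62.9 and 65.9 RPKM with RANKL, a difference of 0.38 ± 0.21 that did not pass (limma adjusted p = 0.259). E2f2 was the member with the most negative difference, at 5.32 and 6.49 RPKM with PBS and 4.60 and 4.44 RPKM with RANKL (-0.32 ± 0.13, limma adjusted p = 0.137).

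EV alone at 48 h called none of the 47 genes by limma, where 0.608% of all genes were higher and 1.29% called in either direction. At an unadjusted p under 0.05, 1 member passed. Shares of all genes called are at the adjusted p throughout and were not counted at the unadjusted p. The smallest p was that of E2f2, at 6.89 and 8.41 RPKM with EV (0.32 ± 0.13 against PBS, limma adjusted p = 0.359). Cdc7, the kinase that fires origins, was at 6.13 and 6.52 RPKM with PBS and 7.81 and 7.79 RPKM with EV, which did not overlap (0.27 ± 0.15, adjusted p = 0.557). Cdt1 was at 32.4 and 32.2 RPKM with EV, above both PBS libraries and below both RANKL libraries (0.15 ± 0.10 against PBS, adjusted p = 0.709). EV added to RANKL at 48 h also called none (limma), where 0.434% of all genes were called by adjusted p. At an unadjusted p under 0.05, 0 members passed. The smallest p there were those of E2f2 (4.60 and 4.44 RPKM with RANKL, 4.88 and 5.36 RPKM with EV+RANKL), Orc1 (5.99 and 5.88 against 5.20 and 5.27 RPKM) and Pola2, a subunit of polymerase alpha (36.3 and 36.9 against 31.5 and 34.1 RPKM), each with a limma adjusted p of 0.999. The median difference of the members was -0.05. EV+RANKL against PBS at 48 h, a comparison added after the data were seen, again called only Cdt1 higher, at 39.4 and 39.1 RPKM with EV+RANKL (0.42, limma adjusted p = 0.0109), where 11.2% of all genes were higher. The call was lost without replicate 2 of PBS or either EV+RANKL library (adjusted p up to 0.115), while 10 members, all higher, were called with only the groups compared and 3 after rescaling.

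At 72 h RANKL alone left nearly all members without a call, while Dbf4 was lower. Dbf4, the regulatory subunit that activates CDC7, was at 9.60 and 8.57 RPKM with PBS and 7.53 and 7.01 RPKM with RANKL, and the libraries did not overlap. At an unadjusted p under 0.05, 3 members passed, a threshold at which all genes were not counted. The difference in Dbf4 was -0.29 ± 0.09 (limma adjusted p = 0.0451), 1 gene lower of 47 where 9.13% of all genes were lower and 9.73% higher. The call was lost without either PBS library, without replicate 2 of RANKL (adjusted p up to 0.242), with no filter on low values and with only the groups compared. The median difference of the members was -0.09 with 37 of 47 negative. Cdt1 was again on the higher side, at 26.4 and 27.2 RPKM with PBS and 30.7 and 35.4 RPKM with RANKL, without passing (0.29 ± 0.10, adjusted p = 0.0743).

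EV alone at 72 h called none of the 47 genes by limma, where 18.3% of all genes were called at the same adjusted p. At an unadjusted p under 0.05, 12 members passed, a threshold at which all genes were not counted. The median difference from PBS was -0.19, and 38 of 47 were negative. Mcm4, a helicase subunit, was at 42.9 and 48.3 RPKM with PBS and 27 and 41.2 RPKM with EV, so that both EV libraries were lower but 1 by much more (-0.44 ± 0.16, limma adjusted p = 0.0716). Chaf1b, a subunit of the histone chaperone CAF-1, was at 9.97 and 11.3 RPKM with PBS and 6.55 and 9.09 RPKM with EV (-0.41 ± 0.14, adjusted p = 0.0552). Ccne1 was at 16.0 and 21.8 RPKM with PBS and 6.98 and 15.7 RPKM with EV (-0.77 ± 0.29, adjusted p = 0.08). The result rests on which EV library is used: without replicate 2 of EV, 33 members were called, with the lone library assumed to vary like the other groups. The cause of the gap between these 2 libraries was not tested.

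Adding EV to RANKL at 72 h called none of the members by limma. By the same adjusted p, 0.531% of all genes were lower and 1.3% higher, 1.83% in all. At an unadjusted p under 0.05, 19 members passed, a threshold at which all genes were not counted. The differences lay mostly on 1 side: 45 of 47 were negative, the median was -0.31 against -0.02 for all genes, and 33 had both EV+RANKL libraries below both RANKL libraries, where 27.6% of all genes did. Dbf4 was at 7.53 and 7.01 RPKM with RANKL and 5.20 and 6.13 RPKM with EV+RANKL (-0.31 ± 0.09, limma adjusted p = 0.0954). Cdc7 was at 6.92 and 5.60 RPKM with RANKL and 3.70 and 4.62 RPKM with EV+RANKL (-0.49 ± 0.15, adjusted p = 0.101), and Chaf1b at 9.73 and 8.17 against 5.65 and 7.11 RPKM (-0.43 ± 0.14, adjusted p = 0.114). In all 3 genes both EV+RANKL libraries were the lower ones. Without replicate 2 of RANKL, 4 members were called, these 3 among them.

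**Figure D3:**
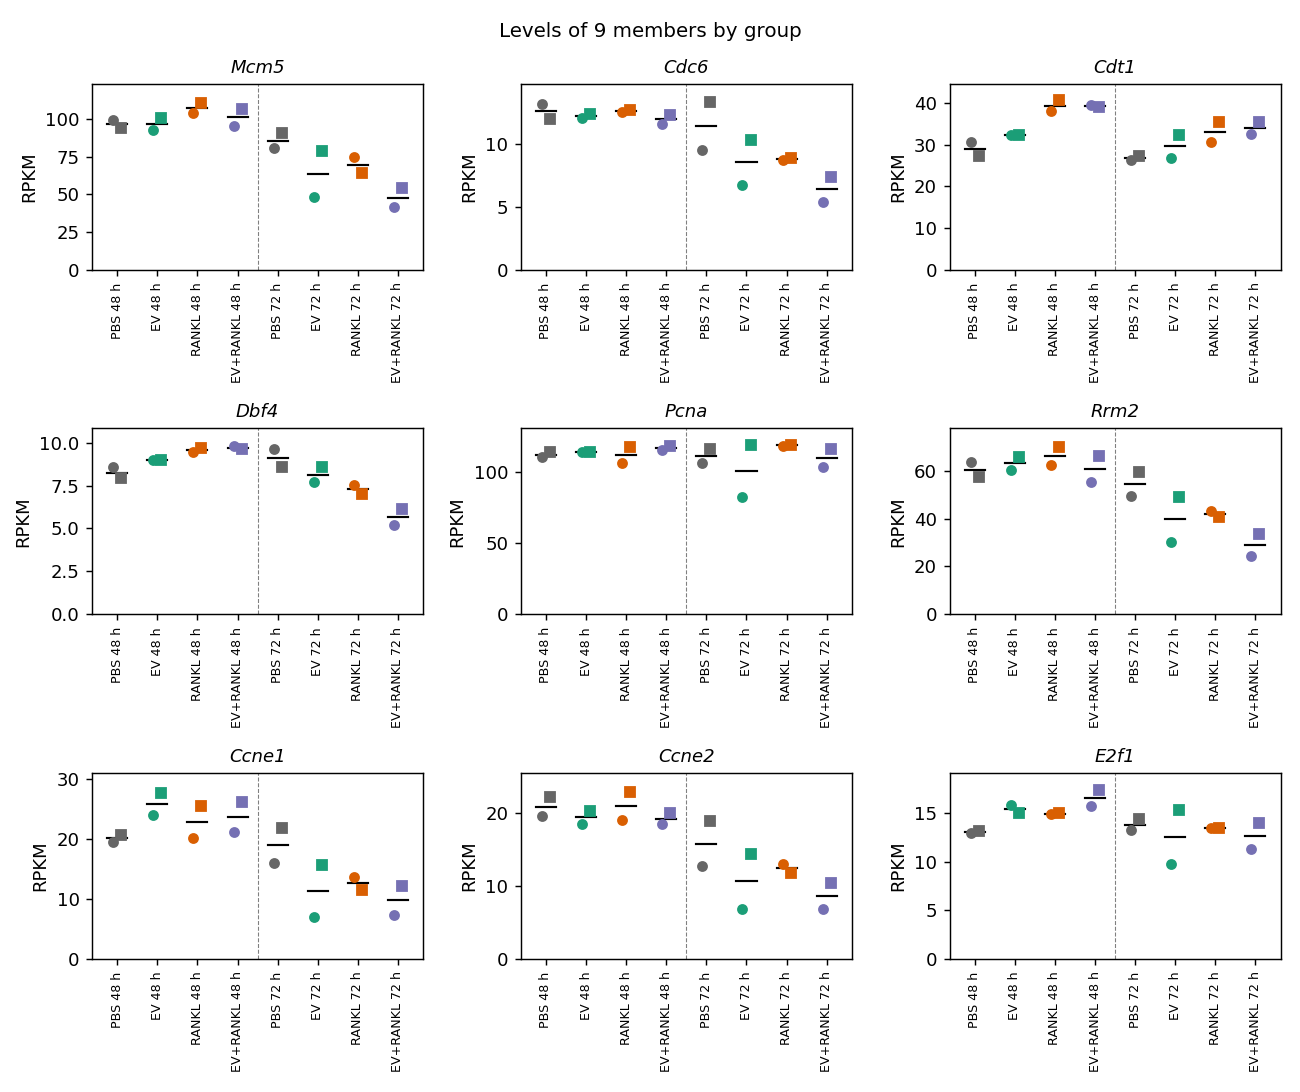
Points are single libraries (circle, replicate 1; square, replicate 2) and bars the mean of each group, in RPKM from 0, for 9 of the 47 genes. Mcm5, Cdc6, Dbf4, Rrm2, Ccne1 and Ccne2 have their lowest group mean in EV+RANKL at 72 h, while Cdt1 is lowest with PBS at 72 h and Pcna differs little between groups apart from replicate 1 of EV at 72 h.

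The widest change was between 48 h and 72 h under EV+RANKL. Of the 47 genes, 37 fell and none rose, where 21.5% of all genes fell. At an unadjusted p under 0.05, 39 members passed, a threshold at which all genes were not counted. All 47 differences were negative, with a median of -0.64 on the log2 scale against -0.02 for all genes, and in 45 genes both libraries at 72 h were below both at 48 h, where 40.3% of all genes were. In bulk RNA, fewer dividing cells and less of these transcripts per dividing cell cannot be told apart. The count was 10 without replicate 1 of EV+RANKL at 72 h and 15 without replicate 2 at 48 h. The 10 genes called in each of the 4 fits that leave out 1 library were Dbf4, Mcm3, Mcm4, Mcm5, Orc6, Rfc5, Chaf1b, Pole2, Uhrf1 and Rrm2. The sum of the osteoclast markers moved in the same comparison, from 634 and 490 RPKM at 48 h to 1600 and 1100 RPKM at 72 h. Acp5 was the largest part of that sum, at 209 and 168 RPKM and then 663 and 435 RPKM. Nfatc1, another marker of the list, went the other way, from 147 and 141 RPKM to 129 and 125 RPKM. The ribosomal protein share moved as well, from 9.02% and 9.18% to 11.2% and 10.9%. The part of the markers and of that share in the result was not tested. When expression was rescaled to nuclear genes other than ribosomal protein genes, 37 members were again called, the same genes.

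Among the origin licensing genes, 4 of 5 fell with time under EV+RANKL, where 21.5% of all genes fell. That share holds for the counts of each role group that follows. Orc1, the largest subunit of the origin recognition complex, was at 5.20 and 5.27 RPKM at 48 h and 2.69 and 3.39 RPKM at 72 h (-0.63 ± 0.14, limma adjusted p = 0.00503). Orc6, the smallest subunit, was at 22.6 and 22.2 RPKM and then at 10.5 and 13.2 RPKM, a non-overlapping difference of -0.88 ± 0.16 (adjusted p = 0.00187). Cdc6 went from 11.6 and 12.3 RPKM to 5.39 and 7.41 RPKM (-0.82 ± 0.18, adjusted p = 0.00424). Gmnn encodes geminin, which binds CDT1 and blocks licensing; it was at 23.8 and 25.6 RPKM and then at 16.9 and 19.5 RPKM (-0.42 ± 0.13, adjusted p = 0.0193). Cdt1 did not pass, at 39.4 and 39.1 RPKM and then 32.6 and 35.5 RPKM (-0.20 ± 0.10, adjusted p = 0.141). Both of its libraries at 72 h were lower than at 48 h but remained above both PBS libraries of either time.

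Of the 10 genes of the replicative helicase and its cofactors, 8 fell. Mcm5 was at 95.3 and 107 RPKM at 48 h and 41.7 and 54.0 RPKM at 72 h, so the lower library at 48 h was well above both at 72 h. Its difference was -1.07 ± 0.19 (limma adjusted p = 0.00175). Mcm4 went from 59.2 and 66.0 RPKM to 29.8 and 37.5 RPKM (-0.88 ± 0.16, adjusted p = 0.00196), and Mcm2 from 59.9 and 61.3 RPKM to 33.9 and 44.0 RPKM (-0.64 ± 0.18, adjusted p = 0.0146). Mcm3, Mcm6 and Mcm7, the other ring subunits among the members, differed by -0.81, -0.69 and -0.55 and fell as well. Mcm10, needed to start unwinding, was at 10.7 and 12.6 RPKM and then 5.95 and 7.88 RPKM (-0.69 ± 0.15, adjusted p = 0.00499). Cdc45, which joins MCM to form the active helicase, was at 25 and 26.6 RPKM and then 12.1 and 17.6 RPKM (-0.78 ± 0.16, adjusted p = 0.00355). The GINS subunits did not pass. Gins2 was at 9.91 and 10.4 RPKM and then 8.44 and 9.60 RPKM (-0.16 ± 0.12, adjusted p = 0.314), and Gins1 at 8.77 and 10.2 RPKM and then 7.83 and 9.42 RPKM (-0.13 ± 0.15, adjusted p = 0.518), with overlapping libraries for Gins1.

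Both parts of the kinase that fires origins fell. Dbf4 had the smallest adjusted p of the 47 genes: it was at 9.81 and 9.62 RPKM at 48 h and 5.20 and 6.13 RPKM at 72 h (-0.69 ± 0.09, limma adjusted p = 0.00102). Cdc7, the catalytic subunit, was at 6.71 and 7.59 RPKM and then 3.70 and 4.62 RPKM (-0.66 ± 0.15, adjusted p = 0.00475).

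Among polymerase and primase genes 7 of 8 fell. Pola1, the catalytic subunit of DNA polymerase alpha, went from 9.02 and 9.51 RPKM to 4.69 and 6.29 RPKM (-0.67 ± 0.15, limma adjusted p = 0.0052). Prim1, the catalytic primase subunit, went from 9.17 and 9.83 RPKM to 5.48 and 6.92 RPKM (-0.55 ± 0.15, adjusted p = 0.0111), and Pole, the catalytic subunit of polymerase epsilon, from 10.4 and 10.3 RPKM to 6 and 7.84 RPKM (-0.53 ± 0.14, adjusted p = 0.0113). In each the libraries of the 2 times did not overlap. Pola2, Prim2, Pold2 and Pole2 fell by 0.54 to 0.68. Pold1, the catalytic subunit of polymerase delta, did not pass: it was at 12.1 and 12.5 RPKM and then at 8.86 and 10.4 RPKM (-0.33 ± 0.16, adjusted p = 0.114).

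The clamp, its loader and the single-strand binding protein RPA had 3 of 8 genes lower (Rfc1, Rfc4 and Rfc5) and a median of -0.39. Of all genes, 21.5% were lower. Pcna was at 115 and 118 RPKM at 48 h and 103 and 116 RPKM at 72 h (-0.09 ± 0.14, limma adjusted p = 0.646). Rfc3, a clamp loader subunit, was at 7.62 and 8.37 RPKM and then 5.78 and 6.84 RPKM (-0.30 ± 0.14, adjusted p = 0.117). Whether this role group differed from the others was not tested. Rfc5 was the loader subunit with the most negative difference, at 16.5 and 17.1 RPKM and then 8.93 and 10.8 RPKM (-0.72 ± 0.15, adjusted p = 0.00356). Both genes that finish Okazaki fragments fell: Fen1, the flap endonuclease, by 0.60 ± 0.21 (adjusted p = 0.0404), and Lig1, the DNA ligase that seals nicks, by 0.62 ± 0.17 (adjusted p = 0.0127). Fen1 went from 28.7 and 32.2 RPKM to 16.7 and 23.5 RPKM, and Lig1 from 45.5 and 47.6 RPKM to 25.7 and 35.0 RPKM.

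All 4 genes of nucleotide supply fell. Rrm2, the regulated small subunit of ribonucleotide reductase, was at 55.5 and 66.1 RPKM at 48 h and 24.5 and 33.5 RPKM at 72 h (-1.06 ± 0.20, limma adjusted p = 0.00217). Rrm1, the large subunit, was at 77.4 and 80.1 RPKM and then 40.4 and 57.3 RPKM (-0.70 ± 0.21, adjusted p = 0.0186). Tk1, thymidine kinase of the salvage pathway, went from 22.6 RPKM in both libraries to 13.5 and 16.5 RPKM (-0.57 ± 0.17, adjusted p = 0.0215). Tyms, thymidylate synthase, went from 7.78 and 8.36 RPKM to 4.84 and 6.43 RPKM (-0.46 ± 0.15, adjusted p = 0.0284). None of the 4 had libraries that overlapped between the times.

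Of the 4 G1/S regulators 3 fell. Ccne1 had the most negative difference of the 47, -1.22 ± 0.29 (limma adjusted p = 0.007): it was at 21.2 and 26.1 RPKM at 48 h and 7.38 and 12.2 RPKM at 72 h. Ccne2 was at 18.4 and 19.9 RPKM and then 6.78 and 10.4 RPKM (-1.10 ± 0.27, adjusted p = 0.00791). The standard errors of both cyclins were the widest among the members. E2f2 was at 4.88 and 5.36 RPKM and then 2.93 and 4.06 RPKM (-0.46 ± 0.13, adjusted p = 0.0183). E2f1, the E2F factor best known for driving S-phase genes, did not pass: it was at 15.8 and 17.4 RPKM and then 11.3 and 14 RPKM (-0.37 ± 0.15, adjusted p = 0.0713).

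All 4 genes of chromatin and histone supply fell. Uhrf1, which maintains DNA methylation on newly copied strands, was at 74.5 and 79.4 RPKM at 48 h and 31.6 and 43.3 RPKM at 72 h (-1.03 ± 0.20, limma adjusted p = 0.00264). Chaf1a, the large subunit of CAF-1, was at 33.9 and 37.2 RPKM and then 17.8 and 25 RPKM (-0.72 ± 0.20, adjusted p = 0.0154). Slbp, which binds the stem-loop of histone mRNAs, was at 13.8 and 14.1 RPKM and then 7.04 and 9.05 RPKM (-0.73 ± 0.17, adjusted p = 0.0064). Chaf1b, the other CAF-1 subunit among the members, was at 11.3 and 11.7 RPKM and then 5.65 and 7.11 RPKM (-0.76 ± 0.14, adjusted p = 0.00197). No library of 72 h reached the 48 h levels in these 4 genes.

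**Figure D4:**
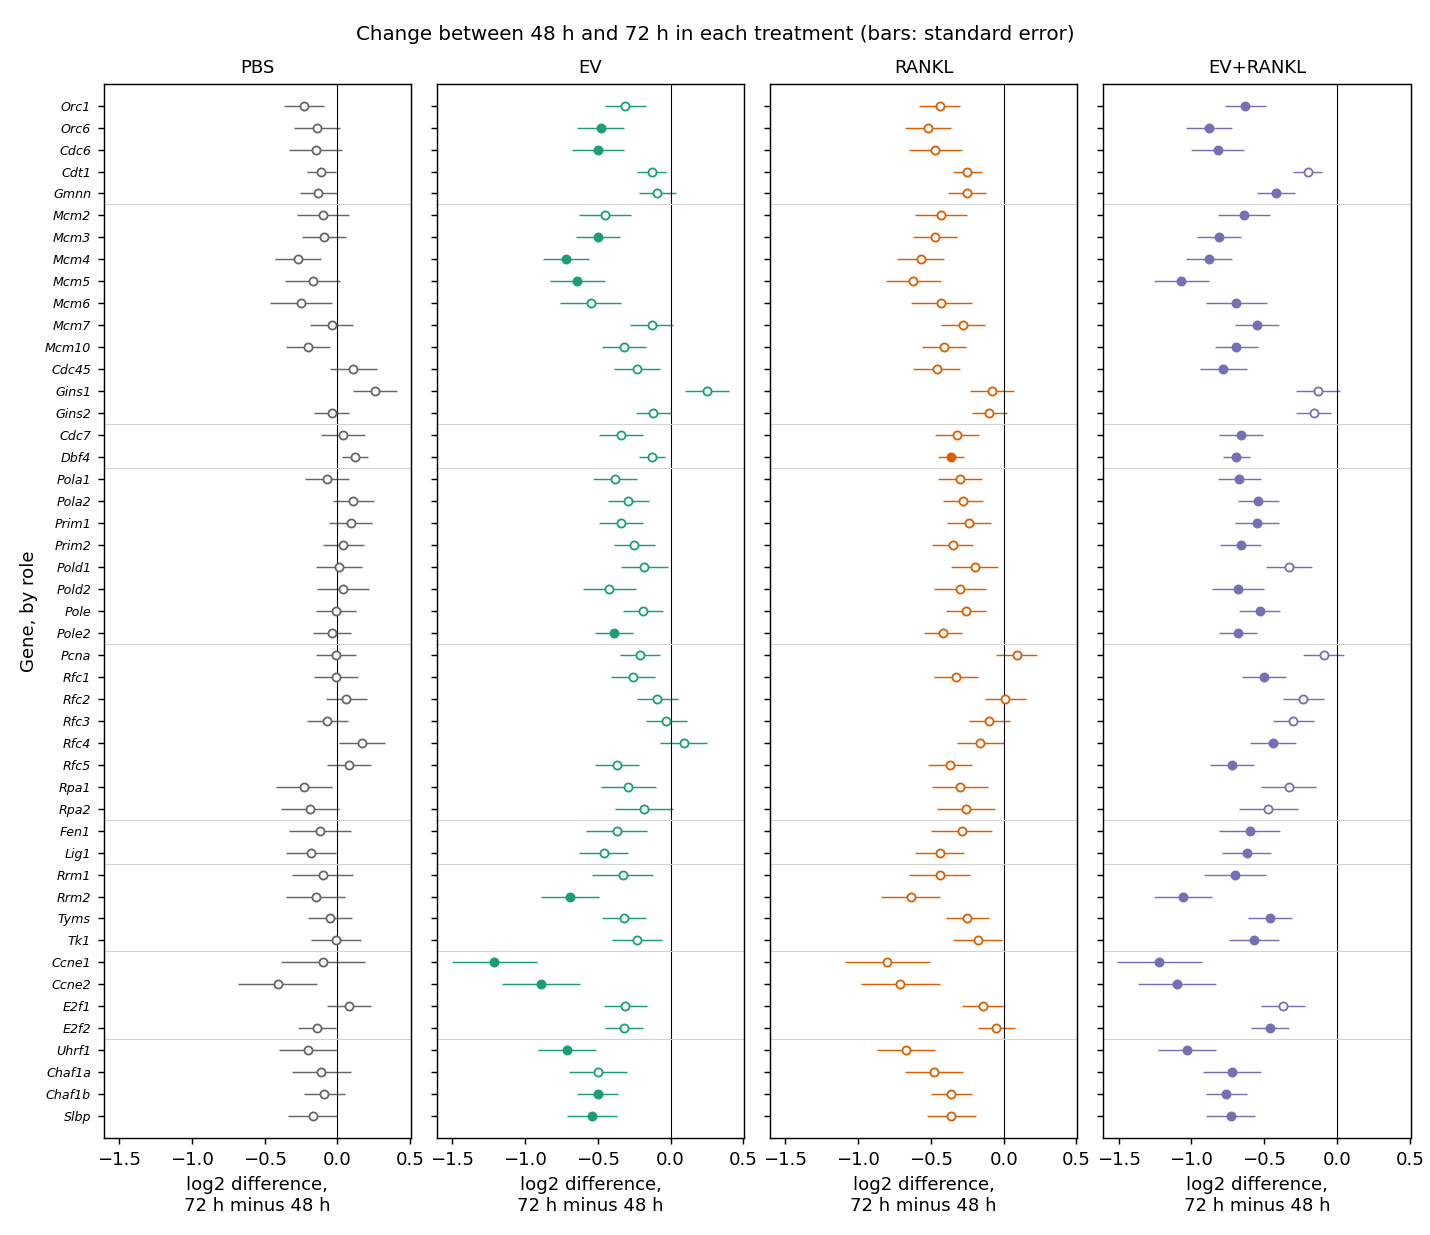
Each panel gives, for 1 treatment, the log2 difference of 72 h minus 48 h for the 47 genes, with bars of 1 standard error; filled points passed an adjusted p under 0.05. No point is filled with PBS, 12 are with EV, 1 with RANKL (Dbf4) and 37 with EV+RANKL. The number of filled points does not test a difference between panels.

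In the other treatments fewer members were called between 48 h and 72 h. With PBS limma called none, where 0.502% of all genes were lower and 0.646% called in all by adjusted p. At an unadjusted p under 0.05, 0 members passed. The median difference was -0.09. The smallest p were those of Gins1 (0.26 ± 0.15, limma adjusted p = 0.567), Mcm4 (-0.27 ± 0.16, adjusted p = 0.583) and Orc1 (-0.23 ± 0.14, adjusted p = 0.596). Gins1 was at 7.37 and 7.53 RPKM at 48 h and 9.48 and 8.77 RPKM at 72 h with PBS, which did not overlap. With RANKL 1 gene fell, Dbf4, from 9.48 and 9.66 RPKM to 7.53 and 7.01 RPKM (-0.36 ± 0.09, limma adjusted p = 0.0433), where 2.58% of all genes fell, 3.45% rose and 6.03% were called in all. The call was lost without either RANKL library of 48 h, without replicate 2 of 72 h (adjusted p up to 0.267), with no filter on low values and with only the groups compared. With RANKL 23 members passed an unadjusted p under 0.05, a threshold at which all genes were not counted. The median difference with RANKL was -0.33, and 41 members had both libraries at 72 h below both at 48 h, where 31.4% of all genes did.

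With EV alone 12 of the 47 genes fell between 48 h and 72 h and none rose, where 14.9% of all genes fell; the median difference was -0.32. In 27 genes both libraries of 72 h lay below both of 48 h, where 31.1% of all genes did. Mcm4 went from 54.8 and 56.3 RPKM to 27 and 41.2 RPKM (-0.72 ± 0.16, limma adjusted p = 0.00741), and Ccne1 from 23.9 and 27.7 RPKM to 6.98 and 15.7 RPKM (-1.21 ± 0.29, adjusted p = 0.00997). Chaf1b went from 10.8 and 11.9 RPKM to 6.55 and 9.09 RPKM (-0.50 ± 0.14, adjusted p = 0.0186), and Uhrf1 from 65.1 and 68.4 RPKM to 30.7 and 52.8 RPKM (-0.71 ± 0.20, adjusted p = 0.019). Both EV libraries at 72 h lay below both at 48 h in these 4 genes, and replicate 1 was the lower of the pair in each. The other 8 were Mcm3, Mcm5, Pole2, Orc6, Cdc6, Rrm2, Ccne2 and Slbp. None of the 12 calls held in every fit that left out 1 library: the count was 0 without replicate 1 at 72 h, 40 without replicate 2 at 72 h, 2 without replicate 1 at 48 h and 0 without replicate 2 at 48 h. It was 4 with no filter on low values and 0 with only the groups compared.

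Whether a treatment's effect differed between the 2 times was tested directly. Each such test is also a test of whether the change with time differed between the 2 treatments compared. For RANKL against PBS, for EV against PBS and for EV added to RANKL, limma called none of the 47 genes. Of all genes, 0.0289%, 0.0193% and 0% were called by adjusted p. Among the members 2, 2 and 1 passed an unadjusted p under 0.05, a threshold at which all genes were not counted. The medians of these differences were -0.29, -0.28 and -0.28. The smallest p was that of Dbf4 for RANKL (-0.48 ± 0.13, limma adjusted p = 0.222), of Ccne1 for EV (-1.11 ± 0.41, adjusted p = 0.188) and of Dbf4 for EV added to RANKL (-0.33 ± 0.13, adjusted p = 0.921). For EV against PBS 25 members were called without replicate 2 of EV at 72 h. EV+RANKL against PBS, added after the data were seen, did differ between the times in 6 genes, where 5.08% of all genes were lower. All 6 were lower at 72 h: Dbf4, Cdc45, Rfc5, Prim2, Chaf1b and Pole2. The median over the members was -0.56, and all 47 were negative. At an unadjusted p under 0.05, where all genes were not counted, 26 members passed. Dbf4 was 8.56 and 7.92 RPKM with PBS and 9.81 and 9.62 RPKM with EV+RANKL at 48 h, and 9.60 and 8.57 against 5.20 and 6.13 RPKM at 72 h, so that EV+RANKL lay above PBS at the first time and below it at the second (-0.81 ± 0.13, limma adjusted p = 0.0146). No call of the 6 held in every fit without 1 library, and their number ran from 0 to 12: it was 12 without replicate 2 of EV+RANKL at 72 h, 0 without replicate 2 of PBS at 48 h, replicate 2 of EV+RANKL at 48 h or replicate 1 of EV+RANKL at 72 h, and 1 without each of the other 4 libraries in turn. It was 1 with no filter on low values and 23 with only the groups compared.

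At 72 h EV+RANKL against PBS, also added after the data were seen, had 23 of the 47 genes lower and 1 higher. Of all genes, 22.1% were lower and 19.9% higher. The median over the members was -0.44. At an unadjusted p under 0.05, 28 members passed, a threshold at which all genes were not counted. Rrm2 was at 49.6 and 59.4 RPKM with PBS and 24.5 and 33.5 RPKM with EV+RANKL (-0.90 ± 0.20, limma adjusted p = 0.00306), and Mcm5 at 80.8 and 90.8 against 41.7 and 54.0 RPKM (-0.84 ± 0.19, adjusted p = 0.00346). Dbf4 (-0.60 ± 0.09, adjusted p = 0.0003) and Chaf1b (-0.66 ± 0.14, adjusted p = 0.00238) had the smallest adjusted p. These 4 genes were below both PBS libraries in both EV+RANKL libraries and were called in every fit that left out 1 library. Cdt1 was the gene that rose, from 26.4 and 27.2 RPKM to 32.6 and 35.5 RPKM (0.33 ± 0.10, adjusted p = 0.0223), a call lost without either PBS library or replicate 2 of EV+RANKL. The number called was 5 without replicate 1 of EV+RANKL and 9 without replicate 2 of PBS.

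Replication genes outside the 47 were counted in the same comparisons. Of 36 other replication and licensing genes, 22 fell and 1 rose between 48 h and 72 h under EV+RANKL, where 21.5% of all genes fell and 17.4% rose, with a median of -0.51. Pole3, a small subunit of polymerase epsilon, went from 39.5 and 43.2 RPKM to 21.8 and 24.1 RPKM (-0.82 ± 0.11, limma adjusted p = 0.00112), and Hells, a chromatin remodeller, from 35.2 and 37.7 RPKM to 10.8 and 16.0 RPKM (-1.40 ± 0.22, adjusted p = 0.00128). Pold4, the smallest subunit of polymerase delta, was the one that rose, from 13 and 10.0 RPKM to 18.1 and 15.0 RPKM (0.49 ± 0.16, adjusted p = 0.0314). Between the same times 6 of the 36 fell with EV, a share near the 14.9% of all genes that fell. With RANKL 3 of the 36 fell (Hells, Pole3 and Timeless), where 2.58% of all genes did. With PBS limma called 0, where 0.646% of all genes were called by adjusted p. At an unadjusted p under 0.05, 1 of the 36 passed with PBS.

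Of 32 other G1/S regulators 30 were in the table and 27 tested, and 15 fell and 2 rose under EV+RANKL between the times, with a median of -0.40, where 21.5% of all genes fell and 17.4% rose. Lin54, a subunit of the DREAM and MuvB complexes, fell by 0.73 ± 0.11 (limma adjusted p = 0.00128), E2f5, a repressor E2F, by 0.54 ± 0.09 (adjusted p = 0.00143), Ccna2, the S-phase cyclin A, by 0.84 ± 0.14 (adjusted p = 0.00143) and E2f8, an atypical repressor E2F, by 1.05 ± 0.18 (adjusted p = 0.00154). The 2 that rose were Cdkn1b, which encodes the inhibitor p27 of cyclin E kinases (0.49 ± 0.15, adjusted p = 0.0246), and Tfdp2, a partner of E2F factors (0.44 ± 0.11, adjusted p = 0.0106). At 48 h RANKL against PBS raised 4 of the 27 and lowered none, where 6.47% of all genes were higher and 8.29% lower, with Myc, a growth-promoting transcription factor, at 2.47 and 3.67 RPKM with PBS and 28.4 and 48.7 RPKM with RANKL (3.25 ± 0.33, adjusted p = 5.9e-05). The other 3 were Cdk6, Cdkn1b and Mybl2.

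Of 25 G2/M genes, which act in mitosis, 24 fell with time under EV+RANKL (median -0.66), where 21.5% of all genes fell. With RANKL 10 fell, where 2.58% of all genes did, and with EV 9, where 14.9% did. With PBS limma called 0, and 0 passed an unadjusted p under 0.05. Plk1, the mitotic polo kinase, fell by 1.02 ± 0.13 (limma adjusted p = 0.00102) and Ube2c, an E2 enzyme of the anaphase-promoting complex, by 0.80 ± 0.10 (adjusted p = 0.00102) under EV+RANKL. Under RANKL alone the median of the G2/M genes was -0.40 and that of the 47 replication and G1/S genes -0.33, with 10 of 25 and 1 of 47 passing; whether the 2 lists differ was not tested.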

How the data were processed

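Total RNA was sequenced after TruSeq mRNA library preparation, per the labels' protocols. The submitters' processing notes list FastQC, HISAT2 and Partek and name human builds, although the gene names are mouse symbols. Which mouse build, annotation and read counting the authors used is not given in the sources used here. The table deposited by the authors was read as log2(RPKM + 1), a log2 scale inferred from the values: with base 2, 81.8% to 85.5% of low values of single-exon genes were within 0.05 of a whole number of reads, against 64.9% to 71.1% with base e and 28.3% to 39.9% with base 10. Depth was estimated from those genes.

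The name of 1 column ends in 48h and the number 2 but leaves out RANKL; it was placed in EV+RANKL at 48 h, since its plus sign with that time fits the titles of no other group, and is called replicate 2. Genes reaching 1 RPKM in 2 libraries were fitted with limma 3.58.1 in R 4.3.3, with a variance trend, 8 group means and all 16 libraries, and Benjamini-Hochberg adjustment over 10365 genes at 0.05. Changes are on the log2(RPKM + 1) scale, which understates those of genes near 1 RPKM. Errors of differences are standard errors. Tested on simulated data of 10365 genes for the change with time under EV+RANKL, limma found 34 of 63 genes at a log2 change of 0.5 (54%), 60 of 68 at 1 (88.2%) and 68 of 69 at 2 (98.6%). It also made 11 calls among unchanged genes. Only the genes counted here were changed, all above a set mean level, with the 2 times otherwise equal. The noise of each gene was drawn independently. The real comparison called 38.9% of all genes, and replicate 1 of EV+RANKL at 72 h was below replicate 2 for all 47 members. These rates therefore do not describe the real comparison.

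The members, gene lists and tests were chosen with earlier results of these data known. Full values were given for the 4 called members of smallest adjusted p in a comparison (3 where none was called), for a set fixed by role, and for up to 4 called genes of each other list; Mcm6 and the remaining members named with values were added after their values were seen. Alternatives were an offset of 0.1, no filter on low values, rescaling to nuclear genes other than ribosomal protein genes, a fit of only the groups compared, a replicate block (without that column and, added after the data were seen, with it) and leaving out each library in turn. The table holds 24 date-like gene names, none of them a member. Promoter sequences are from RefSeq on GRCm38.p6; 8 members had no entry and were named only by symbol.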

Additional observations from a re-analysis of the deposited data

Results flagged for a closer look

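The effect of EV+RANKL against PBS differed between 72 h and 48 h in 6 of the 47 genes by the test of that difference itself (limma, adjusted over 10365 genes, 2 libraries a group), a comparison added after the data were seen. Of all genes tested, 5.08% were lower in that test. The differences of the effects, 72 h minus 48 h on the log2 scale, were -0.81 ± 0.13 (SE) for Dbf4 (adjusted p = 0.0146), -0.89 ± 0.23 for Cdc45 (adjusted p = 0.0347) and -0.80 ± 0.21 for Rfc5 (adjusted p = 0.0362). They were -0.69 ± 0.19 for Prim2 (adjusted p = 0.0416), -0.65 ± 0.18 for Pole2 (adjusted p = 0.0449) and -0.67 ± 0.20 for Chaf1b (adjusted p = 0.0491). In the 8 fits that left out 1 library, Dbf4 was called in 5 and each of the other 5 genes in 1.

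Cdc45 was at 22.4 and 22.6 RPKM with PBS and 25 and 26.6 RPKM with EV+RANKL at 48 h, and at 23.3 and 25.4 against 12.1 and 17.6 RPKM at 72 h. Pole2, the second subunit of polymerase epsilon, was at 15.2 and 16.6 against 18.7 and 20.9 RPKM at 48 h and at 15.1 and 15.8 against 10.9 and 13 RPKM at 72 h. In both genes the EV+RANKL libraries were the higher ones at 48 h and the lower ones at 72 h.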

How the results depend on the processing

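Directions under the alternatives were followed for the called members of each comparison and, where none was called, for the 3 of smallest p. None of these reversed. Other genes named with values were not followed. The largest count, members lower at 72 h than at 48 h under EV+RANKL, was 37 and stayed between 32 and 42 under the offset of 0.1, no filter, rescaling, only the groups compared and the replicate block, and ran from 10 to 38 when 1 library was left out. No label says that a replicate number marks a shared culture or day, so the samples were not treated as paired in the main fit. Deviations of same-numbered libraries nevertheless correlated at -0.11 to 0.53 over 28 pairs of groups, with 17 over 0.1. Among PBS, EV and EV+RANKL at 72 h the correlations were 0.46, 0.40 and 0.53, and replicate 1 was the lower one for 38, 47 and 47 members. The replicate block was fitted without the column whose name lacks RANKL and, added after the data were seen, with all libraries. Those counts were 2 and 2 for RANKL against PBS at 48 h (1 with no block), 0 and 1 at 72 h (1), 1 and 5 for EV against PBS at 72 h (0), 17 and 21 for EV over time (12), 4 and 12 for RANKL over time (1), 1 and 2 for EV+RANKL against PBS at 48 h (1), and 0 and 18 for the change of the EV+RANKL effect (6). Leaving out that column with no block also gave 0 for the last. With only the groups compared they were 18 for RANKL against PBS at 48 h, 0 at 72 h, 0 for EV over time (12 in the fit of all libraries), 0 for RANKL over time, 10 for EV+RANKL against PBS at 48 h (1) and 23 for the change of the EV+RANKL effect. With no filter they were 0 for RANKL against PBS at 72 h, 4 for EV over time, 0 for RANKL over time and 1 for the change of the EV+RANKL effect. Rescaling gave 3 for RANKL and 3 for EV+RANKL against PBS at 48 h. Leaving out 1 library gave 0 to 1 for RANKL against PBS at 48 h, 0 to 2 at 72 h, 0 to 33 for EV against PBS at 72 h, 0 to 4 for EV+RANKL against RANKL at 72 h, 0 to 40 for EV over time, 0 to 1 for RANKL over time, 0 to 25 for the change of the EV effect, 0 to 1 for EV+RANKL against PBS at 48 h, 5 to 28 at 72 h and 0 to 12 for the change of the EV+RANKL effect. In these fits the lone library of a group is assumed to vary like the other groups. Causes of these shifts were not tested. With 2 libraries a group, changes of 0.5 on the log2 scale were often missed in the simulated data.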
